A study of Mus musculus with 4 samples.

Results

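The genes described here are 5 inhibitors of cyclin-dependent kinases (Cdkn1a, Cdkn1b, Cdkn2a, Cdkn2b and Cdkn2c) and 5 genes of the p53 pathway (Trp53, Mdm2, Ccng1, Gadd45a and Aen). They were chosen by symbol from the 23366 genes with an FPKM value, and all 10 passed the filter of a mean of at least 1 FPKM that left 11640 genes. FPKM are fragment counts divided by transcript length and by library size, so levels of different genes can be set side by side. The cells were immortalized mouse embryonic fibroblasts grown in DMEM with 10% FBS, which carried Myc, MycN, Minimal Myc (named so in the labels) or, as the vector culture, an empty vector. All 4 cultures, vector included, were treated with an adenovirus carrying Cre, a recombinase that deletes DNA flanked by its target sites, and then recovered for a time given as 48 with no unit. The series design describes a comparison of cells with deleted Myc with cells that hold one of these Myc proteins. The labels used here give neither the allele that Cre cuts, nor the way the fibroblasts were immortalized, nor the gene from which Minimal Myc was made, nor whether a culture came from 1 clone. Each group has 1 library. No difference below therefore has a replicate check, no test was possible, and neighbouring levels that differ little cannot be put in order. FPKM carry no read depth, so no counting interval can be given.

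Cyclin-dependent kinases drive cells from G1 into DNA synthesis. Inhibitors of the Cip/Kip family, such as p21 (Cdkn1a) and p27 (Cdkn1b), bind complexes of cyclins with their kinases, and inhibitors of the Ink4 family (Cdkn2a, Cdkn2b, Cdkn2c) bind Cdk4 and Cdk6. The p53 protein, encoded by Trp53, switches on p21 and other genes after DNA damage or oncogene stress. Mdm2, itself a p53 target, marks p53 for degradation, and the Arf protein of the Cdkn2a gene holds Mdm2 back. In mouse fibroblasts, loss of Arf or of p53 is a common route to immortal growth, and excess Myc is known to raise Arf and to lower p21 and p15 transcription. These are textbook facts and not results of these data.

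The library of the vector culture differed from the others as a whole. Over 11640 genes, the median difference of log2(FPKM + 1) from vector was 0.47, 0.42 and 0.47 for Myc, MycN and Minimal Myc, so a gene with no difference in FPKM lies below most genes. The authors also deposited FPKM multiplied by 1 factor per library (2.04 for Myc, 1.30 for MycN, 1.28 for Minimal Myc and 1 for vector), which puts these medians at 1.42, 0.76 and 0.80. In bulk RNA, fewer cells of a type and less RNA per cell cannot be told apart. Myc itself read 22.2 FPKM in vector, and 141, 4.36 and 32.6 for Myc, MycN and Minimal Myc, and Mycn read 0.390, 0.275, 178 and 95.9 FPKM in the same order, so the library labelled vector is not shown here to lack Myc transcript, and every comparison with vector below carries that limit. Of the 12 fibroblast markers, 11 passed the filter, and their summed level was 2751 FPKM in vector, and 3593, 2645 and 3416 for Myc, MycN and Minimal Myc. None of the 6 epithelial and 4 endothelial markers passed, with sums of at most 0.663 and 1.18 FPKM in any library, and Epcam was listed at 0 in all but Minimal Myc. Of 6 immune markers only Cd68 did, and their sum was 1.93 to 5.56 FPKM.

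The 10 genes did not differ from vector as a block. In Myc against vector, 2 of 10 were at least 2-fold higher (Cdkn2a and Trp53), where 11.2% of all genes were, and 2 of 10 at least 2-fold lower (Cdkn1a and Gadd45a), where 1.56% of all genes were. In MycN, 2 of 10 were at least 2-fold higher (Cdkn1b and Cdkn2a, against 7.65% of all genes) and 0 of 10 lower (1.86%). In Minimal Myc, 2 of 10 were at least 2-fold higher (Cdkn2a and Cdkn2b, against 13.6%) and 1 of 10 lower (Cdkn1a, against 1.68%). A gene is counted when its difference of log2(FPKM + 1) reaches 1 in size, which makes differences of weakly expressed genes look smaller than they are. The median of the 10 was 0.55, 0.15 and 0.67 in Myc, MycN and Minimal Myc, beside the 0.47, 0.42 and 0.47 of all genes. With the authors' scaling, 7, 3 and 5 of the 10 were at least 2-fold higher than vector for Myc, MycN and Minimal Myc, where 78.5%, 27.4% and 33.7% of all genes were, and 0, 0 and 1 were lower, where 0.498%, 1.25% and 1.05% were. Counts and differences below are of unscaled FPKM unless the scaled table is named. The 3 comparisons share the vector library, so a gene that reads unusually high or low there differs in all of them. Cdkn2a was the one member past 2-fold in the same direction in all 3, and Cdkn1a and Gadd45a were below vector in all 3 without reaching 2-fold in each. The vector library was the lowest of the 4 for 6 of the 10, against 68.1% of all genes, and the highest for 2 of the 10, against 5.53%.

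**Figure D1:**
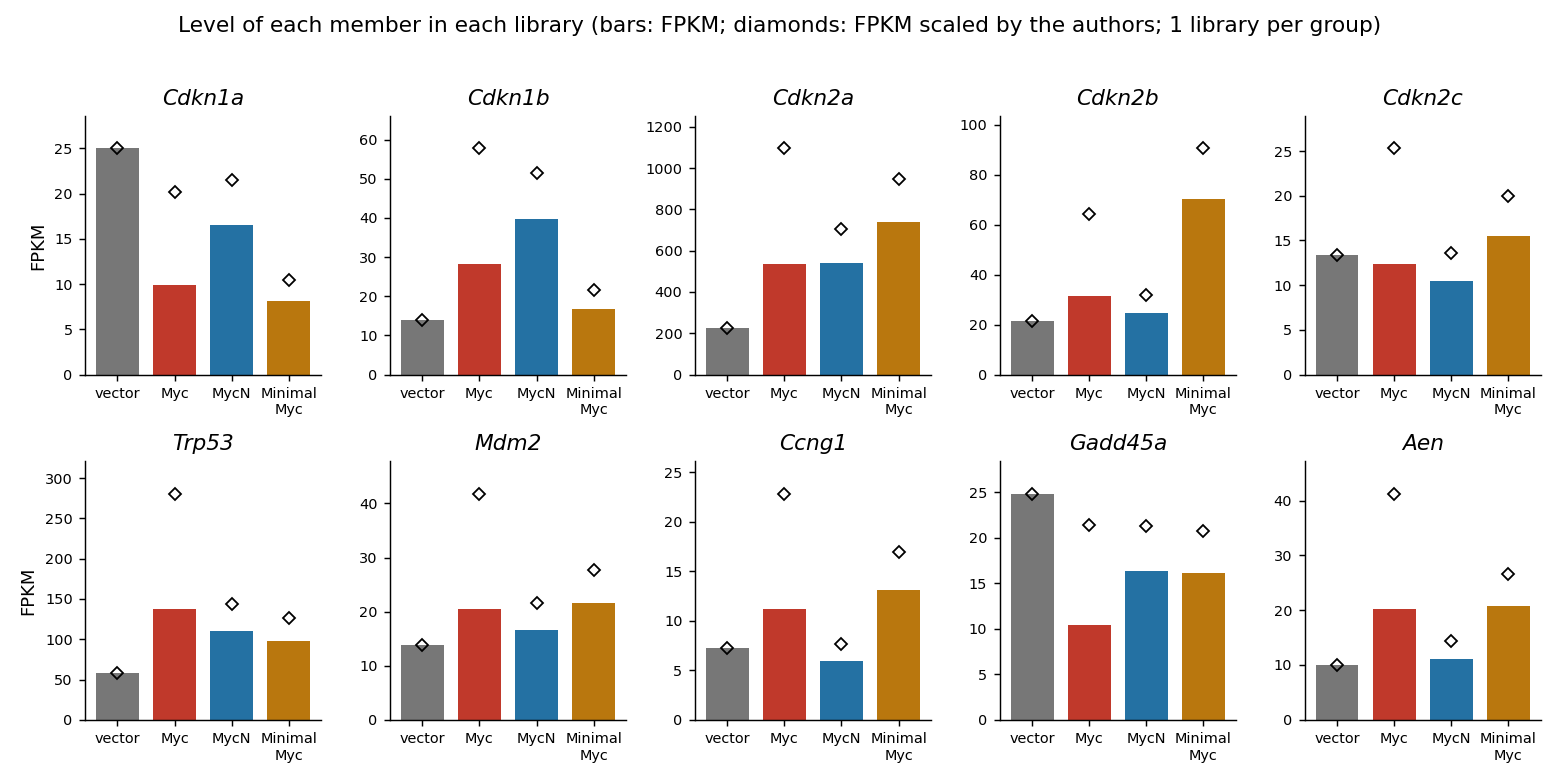
FPKM of each of the 10 genes (vertical axis, starting at 0) in the vector, Myc, MycN and Minimal Myc libraries, 1 library per group; bars are unscaled FPKM and open diamonds are FPKM as scaled by the authors. Cdkn1a and Gadd45a stand highest in vector on both scales, and Cdkn2a reaches 737 FPKM in Minimal Myc.

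Cdkn1a encodes p21, the inhibitor that p53 is best known to induce. It read 25.0 FPKM in vector, and 9.92, 16.5 and 8.18 for Myc, MycN and Minimal Myc. Vector was the highest of the 4 and Minimal Myc the lowest, with MycN in between. The differences of log2(FPKM + 1) from vector were -1.25, -0.57 and -1.50 for Myc, MycN and Minimal Myc. Against the differences of all genes, Cdkn1a lay near the bottom: only 0.954%, 4.29% and 0.567% of genes had a lower value for Myc, MycN and Minimal Myc. On the authors' scaled values it stayed below vector in all 3 libraries, at 20.2, 21.5 and 10.5 for Myc, MycN and Minimal Myc against 25.0. The scaled difference was then -0.29 in Myc, which no longer reached 2-fold, and -1.18 in Minimal Myc, which did. Between Minimal Myc and MycN, the Cdkn1a difference of -0.93 was just short of 2-fold, and it was -1.01 with a pseudocount of 0.1.

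The 2 rows of Cdkn1a in the deposited table stand for 2 starts and hold the same values, so the FPKM cannot be assigned to either start. The sequence before the upstream start, which RefSeq places 2790 bases before the other, is shown because it holds both matches of Cdkn1a to the p53 decamer. That decamer is one of the pair of 10-base units of a p53 response element: 3 purines, C, A or T at each of the next pair of positions, G, and 3 pyrimidines. Matches are in capitals, and every sequence is written 5′ to 3′ on the strand of its gene. The 250 bases before the start lie at chr17:29090729-29090978 of GRCm38.p6 on the plus strand.
Cdkn1a: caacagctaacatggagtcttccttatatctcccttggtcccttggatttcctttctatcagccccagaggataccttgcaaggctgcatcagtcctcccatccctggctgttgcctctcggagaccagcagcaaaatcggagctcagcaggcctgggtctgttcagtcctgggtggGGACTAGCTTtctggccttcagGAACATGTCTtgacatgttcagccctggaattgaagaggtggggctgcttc
The matches span bases -73 to -64 and -51 to -42 counted from the start, with 12 bases between them. Only exact matches are marked. The 10 bases right after the match at -51 to -42 differ from the decamer in their first letter alone and stay in lower case. The marked matches are therefore not shown to be the pair of a response element. Of all 32851 promoter windows in the RefSeq table, 8.36% held at least 1 such match and 0.359% at least 2. Those windows run from 250 bases before to 50 bases after a start. The window at the downstream start of Cdkn1a held none. A match is a description of letters, not of p53 binding, which was not measured.

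Gadd45a, a stress gene of DNA repair and growth arrest that p53 also induces, was like Cdkn1a highest in vector. It read 24.8 FPKM in vector, and 10.5, 16.3 and 16.2 for Myc, MycN and Minimal Myc. Vector was again the highest, but here Myc was the lowest, and MycN and Minimal Myc were nearly level. Its differences from vector were -1.17, -0.58 and -0.59 in Myc, MycN and Minimal Myc, and 1.08%, 4.23% and 4.02% of all genes had lower ones. In the scaled table the 3 values lay between 20.8 and 21.3, all under the 24.8 of vector, and none was 2-fold lower. The 250 bases before its start, at chr6:67037408-67037657 of GRCm38.p6 on the minus strand, are shown beside those of Cdkn1a because both genes were lower than vector in all 3 libraries, and they hold 1 match to the p53 decamer, at bases -40 to -31.
Gadd45a: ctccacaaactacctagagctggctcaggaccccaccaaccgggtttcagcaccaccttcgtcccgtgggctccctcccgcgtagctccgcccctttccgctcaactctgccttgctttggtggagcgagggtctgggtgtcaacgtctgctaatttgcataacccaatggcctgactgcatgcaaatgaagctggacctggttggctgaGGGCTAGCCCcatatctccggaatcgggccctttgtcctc
Of its relatives, Gadd45g was also lower in Myc, at 21.1 FPKM against 50.5 in vector, a difference of -1.22. It was 29.3 FPKM in MycN and 52.1 in Minimal Myc, so Minimal Myc was level with vector. Gadd45b read 34.7, 29.8, 37.1 and 47.3 FPKM in vector, Myc, MycN and Minimal Myc, and did not reach 2-fold in any comparison with vector. Gadd45gip1, whose product binds Gadd45 proteins, read 15.5 FPKM in vector, and 31.1, 26.9 and 29.3 for Myc, MycN and Minimal Myc, just under 2-fold in Myc at a difference of 0.96.

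Cdkn1b, which encodes p27, went the other way from Cdkn1a in Myc and MycN. It read 13.8 FPKM in vector, and 28.3, 39.6 and 16.7 for Myc, MycN and Minimal Myc. MycN was the highest, and Minimal Myc stood close to vector. Myc, at 57.7, was above MycN, at 51.6, in the scaled table, so the order of these libraries depends on the scaling. The differences from vector were 0.98, 1.46 and 0.26 in unscaled FPKM, where MycN alone reached 2-fold, and 1.99, 1.83 and 0.60 in the scaled table, where Myc did too. In Myc, the plain ratio of FPKM was 2.05, and the difference was 1.03 with a pseudocount of 0.1. In MycN 98.3% of genes had a smaller difference, in Myc 88.1% and with Minimal Myc 32.3%. Minimal Myc was 2-fold lower than MycN, at -1.20, where 3.69% of all genes were 2-fold lower. That difference was -1.22 in the scaled table. Against Myc, the difference of Minimal Myc was -0.72, or -1.38 in the scaled table.

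The balance of p21 to p27 transcripts does not depend on the scaling, because a factor for a whole library cancels in a ratio within it. Cdkn1a over Cdkn1b was 1.81 in vector, and 0.351, 0.417 and 0.489 for Myc, MycN and Minimal Myc. The vector library was the one in which Cdkn1a exceeded Cdkn1b. How the difference divides between the genes does depend on the scaling. In unscaled FPKM both genes contributed in Myc and MycN, whereas in Minimal Myc Cdkn1b stood near its vector level and Cdkn1a was low. In the scaled table Cdkn1a differed from vector by -0.29, -0.21 and -1.18 in Myc, MycN and Minimal Myc. Cdkn1b differed there by 1.99, 1.83 and 0.60, so Cdkn1b had the larger part in Myc and MycN. Of the 9 genes of p27 turnover, 1 was at least 2-fold higher than vector in Myc, where 11.2% of all genes were. In MycN and Minimal Myc 0 were, against 7.65% and 13.6% of all genes. None of the 9 was lower in Myc, MycN or Minimal Myc, where 1.56%, 1.86% and 1.68% of all genes were. The gene past 2-fold in Myc was Skp1a, a subunit of SCF ubiquitin ligases, at 155 FPKM against 70.1. The list medians of 0.53, 0.39 and 0.66 lay near those of all genes.

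Cdkn2a had the highest level of the 10 in every library. It read 227 FPKM in vector, and 536, 543 and 737 for Myc, MycN and Minimal Myc. At least 98.2% of all genes had lower values in each library. Vector was the lowest, Myc and MycN were level with each other, and Minimal Myc was the highest. The differences from vector were 1.24, 1.25 and 1.69, and 95.1%, 96.8% and 97.5% of all genes had smaller ones. Measured from the median of all genes they were 0.76, 0.83 and 1.22, so Minimal Myc alone was 2-fold higher on that basis. In the scaled table Myc read 1095, above the 947 of Minimal Myc and the 706 of MycN, so the order of the 3 Myc libraries depends on the scaling while vector stayed lowest.

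This gene encodes unrelated proteins, p16 (Ink4a) and p19 (Arf), from separate first exons that share later exons in different reading frames. RefSeq places the 2 starts 12427 bases apart on chromosome 4. The 2 rows of Cdkn2a in the deposited table hold the same value in every library, so how much of the level belongs to p16 or to Arf cannot be told from these files. Neither start had a match to the E-box CACGTG, a site that Myc with Max can bind, or to the p53 decamer in its window. Of 12 measured genes that act on the Cdkn2a locus or its product, 1 was at least 2-fold higher than vector in Myc. In MycN and Minimal Myc 2 each were, and 0 were lower in any of the Myc libraries. Of all genes 11.2%, 7.65% and 13.6% were 2-fold higher in Myc, MycN and Minimal Myc, and 1.56%, 1.86% and 1.68% lower. Npm1, a nucleolar protein that binds Arf, was 345 FPKM in vector, and 1054, 588 and 1187 for Myc, MycN and Minimal Myc. The Polycomb genes Cbx7 and Cbx8 were the 2 in MycN, at 8.23 FPKM against 3.43 and 12.1 against 5.16. Tbx3, a repressor of Arf, was 10.0 FPKM in Minimal Myc against 2.72. The medians of 0.55, 0.56 and 0.53 were close to those of all genes.

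Cdkn2b, the neighbour of Cdkn2a and the gene of p15, was past 2-fold against vector in Minimal Myc alone in unscaled FPKM. It read 21.6 FPKM in vector, and 31.5, 24.6 and 70.5 for Myc, MycN and Minimal Myc. The first 3 libraries lay within 10 FPKM of each other, and Minimal Myc stood apart above them. The difference from vector was 1.66 in Minimal Myc, against 0.53 in Myc and 0.18 in MycN. Scaled by the authors, it was 2.02 in Minimal Myc and also past 2-fold in Myc, at 1.53. Minimal Myc was also 2-fold higher than Myc, at 1.14, as were 4.48% of all genes (no member was 2-fold lower there, against 2.16%), and than MycN, at 1.48, as were 6.94%. In the scaled table the difference from Myc was 0.49, under 2-fold, and that from MycN was 1.47. The ratio of Cdkn2a to Cdkn2b, which no scaling changes, was 10.5 in vector and 10.5 in Minimal Myc, but 17.0 in Myc and 22.1 in MycN. In Minimal Myc both genes of the locus thus stood above vector by like factors, 3.25 for Cdkn2a and 3.26 for Cdkn2b.

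Cdkn2c, the gene of p18, varied least of the 10 in unscaled FPKM, but not in the scaled table, where it spanned 13.4 to 25.3 and Gadd45a 20.8 to 24.8. It read 13.4 FPKM in vector, and 12.4, 10.5 and 15.5 for Myc, MycN and Minimal Myc, and no comparison reached 2-fold. Its differences from vector of -0.10, -0.33 and 0.20 lay below the median of all genes in all 3 libraries, and the first 2 changed sign to 0.87 and 0.02 in the scaled table. Cdkn2b over Cdkn2c was 1.61 in vector, and 2.55, 2.35 and 4.54 for Myc, MycN and Minimal Myc. Of the remaining inhibitor genes, Cdkn2d, another Ink4 member, read 17.1, 21.3, 17.0 and 23.6 FPKM in vector, Myc, MycN and Minimal Myc, and did not reach 2-fold against vector. Cdkn1c, the gene of p57, did not pass the filter, at 0.656 FPKM or less in each library and listed at 0 in MycN.

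**Figure D2:**
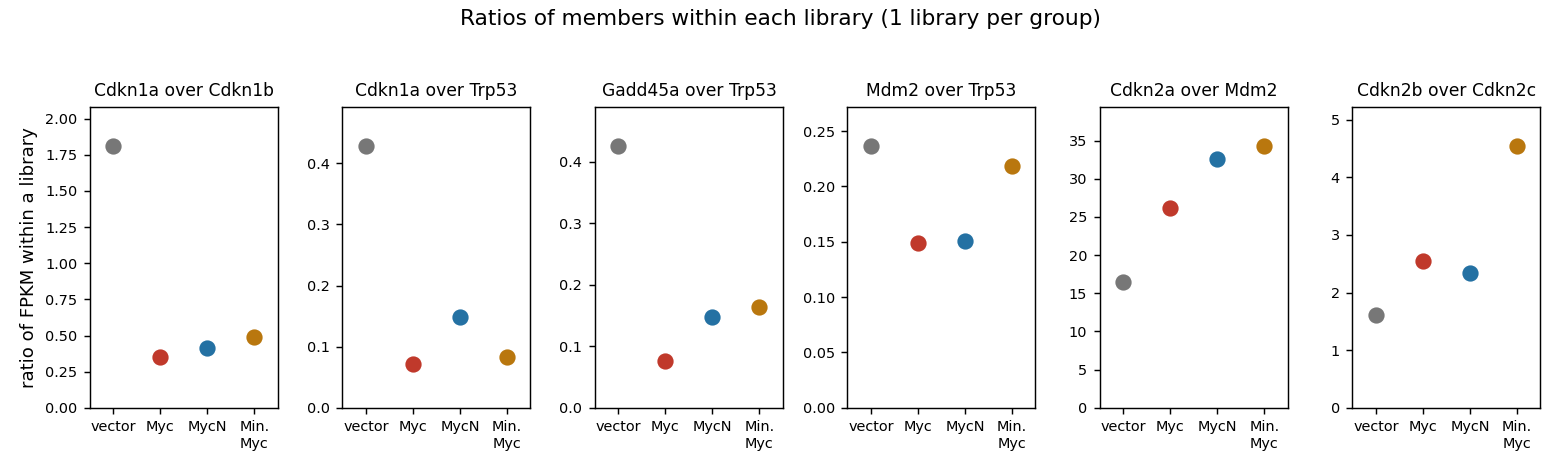
Ratio of the FPKM of a pair of genes within a library (vertical axis, no unit, starting at 0) for 6 pairs in the vector, Myc, MycN and Minimal Myc (Min. Myc) libraries, 1 point per library. Cdkn1a over Cdkn1b is 1.81 in vector and at most 0.489 elsewhere, and Cdkn2b over Cdkn2c is highest in Minimal Myc at 4.54.

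Trp53, the gene of p53 itself, was higher in every Myc library than in vector. It read 58.4 FPKM in vector, and 138, 111 and 98.4 for Myc, MycN and Minimal Myc. Vector was the lowest and Myc the highest. The differences from vector were 1.22, 0.91 and 0.74, of which that in Myc reached 2-fold, and 94.9%, 89.1% and 72.3% of all genes had smaller ones. In the scaled table all 3 were past 2-fold, at 2.25, 1.29 and 1.10, and Minimal Myc was 2-fold lower than Myc, at -1.15. Measured from the median of all genes, none of the 3 was, with 0.75, 0.49 and 0.27. The 250 bases before its start lie at chr11:69580109-69580358 of GRCm38.p6 on the plus strand and are shown because they hold a match to the p53 decamer, at bases -75 to -66.
Trp53: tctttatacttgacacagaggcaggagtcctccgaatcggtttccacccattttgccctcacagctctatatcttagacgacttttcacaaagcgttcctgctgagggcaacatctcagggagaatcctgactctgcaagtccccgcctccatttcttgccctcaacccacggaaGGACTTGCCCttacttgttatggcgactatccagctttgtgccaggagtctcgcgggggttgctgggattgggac
The E-box CACGTG lies just past the start, at bases 11 to 16, and is shown in capitals with 12 bases on either side, at chr11:69580357-69580386.
Trp53: actttcccctccCACGTGctcaccctggct
The E-box reads the same on both strands, overlapped no decamer match in the windows of these genes, and was found in 7.15% of all 32851 windows. The p53 relatives Trp63 and Trp73 did not pass the filter, with at most 0.112 and 0.00695 FPKM.

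Mdm2 followed the middle of all genes. It read 13.8 FPKM in vector, and 20.5, 16.7 and 21.5 for Myc, MycN and Minimal Myc. The differences of 0.54, 0.25 and 0.61 did not reach 2-fold and differed from the median of all genes by 0.06, -0.16 and 0.13. The difference in Myc was 1.53 in the scaled table, past 2-fold. Set against Trp53, whose product induces it, Mdm2 was 0.236 of the Trp53 level in vector, 0.149, 0.151 and 0.219 for Myc, MycN and Minimal Myc. Cdkn1a over Trp53 spread more widely, at 0.428 in vector and 0.0721, 0.149 and 0.0832 in Myc, MycN and Minimal Myc. Gadd45a over Trp53 was 0.425, 0.0760, 0.148 and 0.164 in the same order. Cdkn2a over Mdm2 was 16.5 in vector, and 26.2, 32.6 and 34.3 for Myc, MycN and Minimal Myc. The RefSeq window of Mdm2 held 1 match to the decamer, at bases -186 to -177, and no E-box.

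Ccng1 (cyclin G1) and Aen (an exonuclease of apoptosis), both known p53 targets, had a pattern unlike that of Cdkn1a. Ccng1 read 7.21 FPKM in vector, and 11.2, 5.92 and 13.2 for Myc, MycN and Minimal Myc. Aen read 10.1, 20.2, 11.0 and 20.8 FPKM. For both genes Myc and Minimal Myc were the higher libraries, and vector and MycN the lower. No difference from vector reached 2-fold for Ccng1, with 0.57, -0.25 and 0.79, or for Aen, with 0.94, 0.12 and 0.97, in unscaled FPKM. Both genes were in the scaled table past 2-fold in Myc, at 1.54 for Ccng1 and 1.93 for Aen, and in Minimal Myc, at 1.12 and 1.32. The plain FPKM ratio of Aen to vector was 2.01 in Myc and 2.06 in Minimal Myc, and with a pseudocount of 0.1 the difference in Minimal Myc was 1.03. Minimal Myc was 2-fold higher than MycN for Ccng1, at 1.03, and not for Aen, at 0.86. That Ccng1 difference was 0.99 after centring on the median of all genes, which is under 2-fold. Between MycN and Myc both genes were at -0.82, and at -1.45 for Ccng1 and -1.47 for Aen in the scaled table. None of the 10 genes was 2-fold higher or lower between MycN and Myc in unscaled FPKM, where 1.95% of all genes were higher and 2.74% lower. One of the RefSeq starts of Aen has an E-box at bases -79 to -74, shown with 12 bases on either side at chr7:78895967-78895996 of GRCm38.p6 on the plus strand.
Aen: cggcaagggttcCACGTGaaacctgggaaa
In all, 6 of the 10 genes had a decamer match and 3 of the 10 an E-box in at least 1 of their 14 windows. Beside Trp53 and Aen, the E-box gene was Cdkn2c, at bases 35 to 40 counted from a start. Its differences from vector were -0.10, -0.33 and 0.20 in Myc, MycN and Minimal Myc. The 4 genes without a decamer match were the 4 inhibitor genes other than Cdkn1a. Counted by window, 7 of the 14 held a decamer match and 3 of the 14 an E-box, against 8.36% and 7.15% of all windows. The windows of Aen overlap and hold the same decamer match. The genes were chosen by name, in part for the p53 pathway, so these shares are a description.

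**Figure D3:**
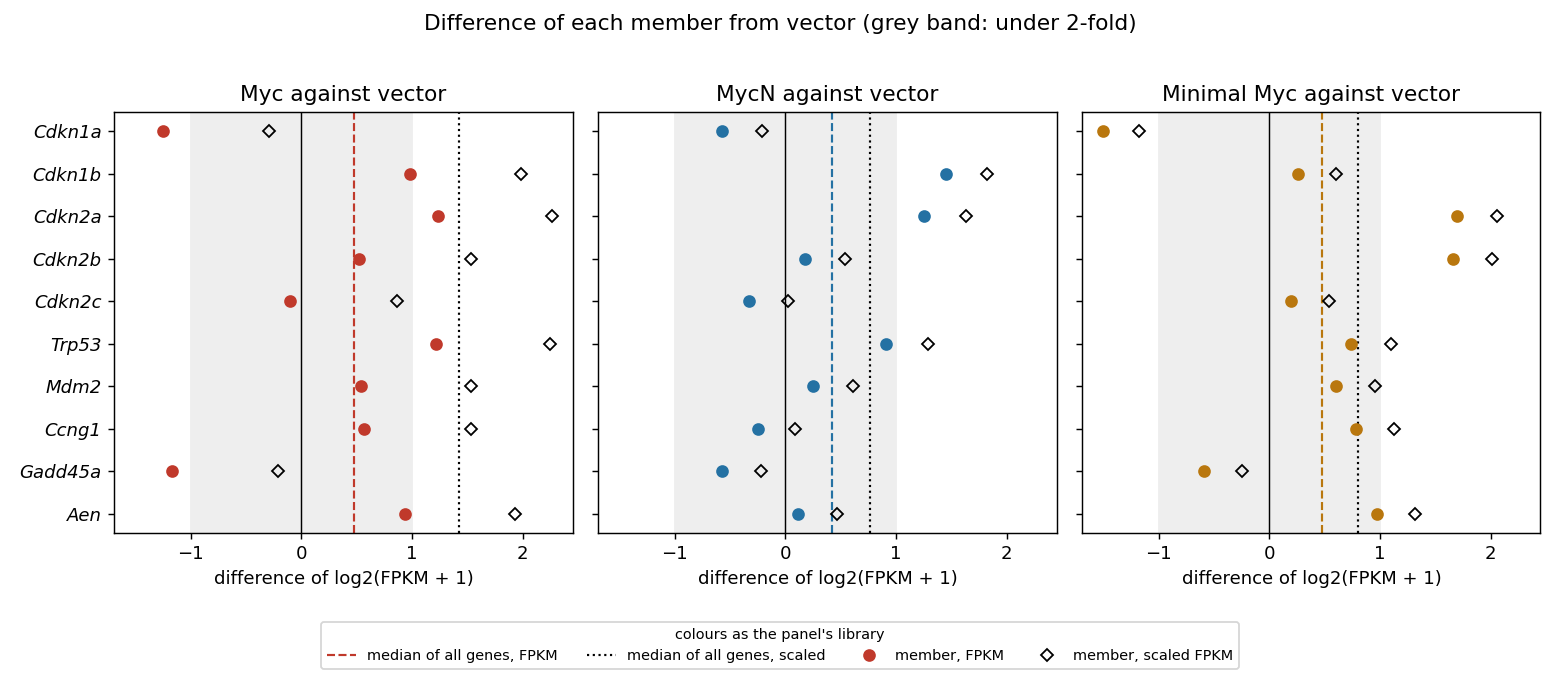
Difference of log2(FPKM + 1) from vector (horizontal axis) for the 10 genes in Myc, MycN and Minimal Myc; filled points are unscaled FPKM, open diamonds the table scaled by the authors, the dashed and dotted lines the medians of all 11640 genes on each scale, and the grey band differences under 2-fold. Cdkn1a and Gadd45a lie left of 0 on both scales in all 3 panels, and Cdkn2b is past 2-fold in Minimal Myc alone on the unscaled scale.

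By their medians, the wider p53 targets that passed the filter did not share the low values of Cdkn1a and Gadd45a. Of 28 other target genes 24 passed the filter, and in Myc, MycN and Minimal Myc 5, 4 and 3 of these were at least 2-fold higher than vector, with 0 lower in each. Of all genes 11.2%, 7.65% and 13.6% were 2-fold higher, and 1.56%, 1.86% and 1.68% lower, so few lower genes would be looked for among 24. After scaling by the authors, 19, 11 and 8 of the 24 were 2-fold higher, against 78.5%, 27.4% and 33.7% of all genes. Their medians of 0.47, 0.55 and 0.44 were close to those of all genes. Fas, a death receptor, was high in all 3 Myc libraries, at 3.24 FPKM in vector, and 12.6, 18.2 and 16.6 for Myc, MycN and Minimal Myc. Ei24 was 11.0 FPKM in vector, and 25.7, 14.1 and 24.1 for Myc, MycN and Minimal Myc, with vector and MycN the lower pair, as for Ccng1 and Aen. Sesn1, a regulator of mTORC1, was 5.96, 14.0, 10.9 and 6.09 FPKM, so Minimal Myc was level with vector. Psrc1 was 1.54, 4.45, 6.03 and 1.31 FPKM, again with Minimal Myc at the vector level. In MycN, the others were Btg2, a gene that restrains growth, at 4.27 FPKM against 1.58, and Trp53inp1 at 3.77 against 1.32. Rps27l was 435 FPKM in Minimal Myc against 176. Perp, an apoptosis gene under the filter's minimum, stood at 2.33 FPKM in vector, at most 0.0172 in Myc and MycN, and listed at 0 in Minimal Myc; it is named after its values were seen.

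Regulators of p53 lay near the median of all genes too, with medians of 0.62, 0.48 and 0.59 in Myc, MycN and Minimal Myc. Of all genes 11.2%, 7.65% and 13.6% were 2-fold higher than vector in these libraries, and 1.56%, 1.86% and 1.68% lower. Of the 22 regulators, 3, 1 and 3 were at least 2-fold higher than vector in Myc, MycN and Minimal Myc, and 0 lower. In Myc these were the ribosomal protein genes Rpl5, Rpl11 and Rps7, whose products can hold Mdm2 back and whose values are uncertain because near-identical copies of such genes exist. Rpl11 was 1805 FPKM in Myc against 670 in vector. Mdm4, the partner of Mdm2, followed Cdkn1b rather than Mdm2: it was 5.96 FPKM in vector, and 11.4, 16.5 and 7.65 for Myc, MycN and Minimal Myc. The difference of 1.33 in MycN was the one past 2-fold. In Minimal Myc they were Daxx, at 27.7 FPKM against 10.6, Usp7, a protease that removes ubiquitin from p53 and Mdm2, at 30.4 against 13.6, and Rpl11. Ccng2, a relative of Ccng1, was 7.39, 14.6, 19.5 and 6.78 FPKM in vector, Myc, MycN and Minimal Myc, and at 1.29 in MycN passed 2-fold. As for Cdkn1b, MycN was the highest library and Myc the next, with Minimal Myc and vector the lower pair. Ccni (cyclin I) read 42.4 FPKM in vector, and 41.4, 57.0 and 34.0 for Myc, MycN and Minimal Myc, with no difference from vector past 2-fold.

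Among 12 inputs to the inhibitor genes, in Myc, MycN and Minimal Myc 2, 3 and 2 were at least 2-fold higher than vector, and 0 lower. Of all genes 11.2%, 7.65% and 13.6% were 2-fold higher, and 1.56%, 1.86% and 1.68% lower. The list medians were 0.44, 0.26 and 0.52. With the authors' scaling, 10, 5 and 3 of these 12 were 2-fold higher, as were 21, 8 and 9 of the 22 regulators of p53. So were 11, 5 and 4 of the 12 genes acting on the Cdkn2a locus or its product, and 8, 2 and 5 of the 9 of p27 turnover. On that scale 78.5%, 27.4% and 33.7% of all genes were 2-fold higher for Myc, MycN and Minimal Myc. Zbtb17, which encodes Miz1, the partner through which Myc is known to repress Cdkn1a and Cdkn2b, stood above vector by 0.50 in Myc, 0.65 in MycN and 0.51 in the Minimal Myc library, at 10.3 to 11.6 FPKM; it is named for that role, outside the rule. Tfap4, a repressor of Cdkn1a, was 4.18 FPKM in vector, and 13.6, 10.5 and 12.7 for Myc, MycN and Minimal Myc. Foxo3, an activator of Cdkn1b, was 4.16, 12.9, 13.0 and 5.31 FPKM, so that, like Cdkn1b, it was high in Myc and MycN and close to vector in Minimal Myc. Foxo1 read 1.70 FPKM in vector, and 2.54, 4.41 and 3.79 for Myc, MycN and Minimal Myc, so unlike Cdkn1b it was not close to vector in Minimal Myc. Tgfbr1, a receptor of the TGF-beta pathway that induces Cdkn2b, was 2.49 FPKM in vector, and 5.55, 2.53 and 7.04 for Myc, MycN and Minimal Myc.

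The kinase, cyclin and E2f genes downstream of the inhibitors are set beside all genes here. In unscaled FPKM 11.2%, 7.65% and 13.6% of all genes were 2-fold higher than vector for Myc, MycN and Minimal Myc. Those 2-fold lower were 1.56%, 1.86% and 1.68%. Of 13 kinases, cyclins and pocket proteins, 0 were 2-fold higher or lower in Myc or MycN and 2 were higher in Minimal Myc: Cdk1, at 91.3 FPKM against 44.9, and Ccnd3, at 98.4 against 45.5. None of 10 E2f family genes reached 2-fold against vector in unscaled FPKM. The medians of the 13 were 0.74, 0.43 and 0.62 for Myc, MycN and Minimal Myc. Those of the E2f genes were 0.49, 0.38 and 0.56, and those of all genes 0.47, 0.42 and 0.47. Above the median of all genes lay 10, 8 and 9 of the 13, and 5, 4 and 6 of the 10 E2f genes. With the authors' factors applied, 11, 2 and 5 of the 13 and 10, 3 and 4 of the 10 E2f genes were at least 2-fold higher for Myc, MycN and Minimal Myc, where 78.5%, 27.4% and 33.7% of all genes were. The authors' NanoString signal is a direct count of RNA molecules by hybridization, given in the same table for 30 genes. It covers none of the 10 members, and of the list genes it covers Cdk4, Ccnd2, Npm1, Ccni and E2f2. For Cdk4, the kinase that Ink4 proteins bind, the NanoString ratio to vector in the unscaled table was 2.25, 1.07 and 1.21 for Myc, MycN and Minimal Myc, where FPKM gave 1.91, 1.53 and 1.53. For Ccnd2 it was 1.62, 1.68 and 1.50, against 1.93, 1.99 and 1.83 in FPKM. Ccni had 1.45, 0.979 and 0.791, against 0.976, 1.35 and 0.803 in FPKM. E2f2 had 1.44, 1.33 and 0.699, against 1.35, 1.55 and 0.659. For both Ccni and E2f2 the highest library was Myc in NanoString and MycN in FPKM. The NanoString signal of Npm1 was higher in Myc, at 111489, than in Minimal Myc, at 78556. In FPKM, Npm1 had the reverse order, at 1054 and 1187. Over the 28 NanoString genes that passed the filter, the log2 ratio to vector in FPKM differed from that in NanoString by a median of -0.03, 0.45 and 0.45 for Myc, MycN and Minimal Myc. The NanoString values of the scaled table carry the same factor per library as its FPKM, so these differences are the same within either table and do not tell which scale is nearer for the 10 members.

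**Figure D4:**
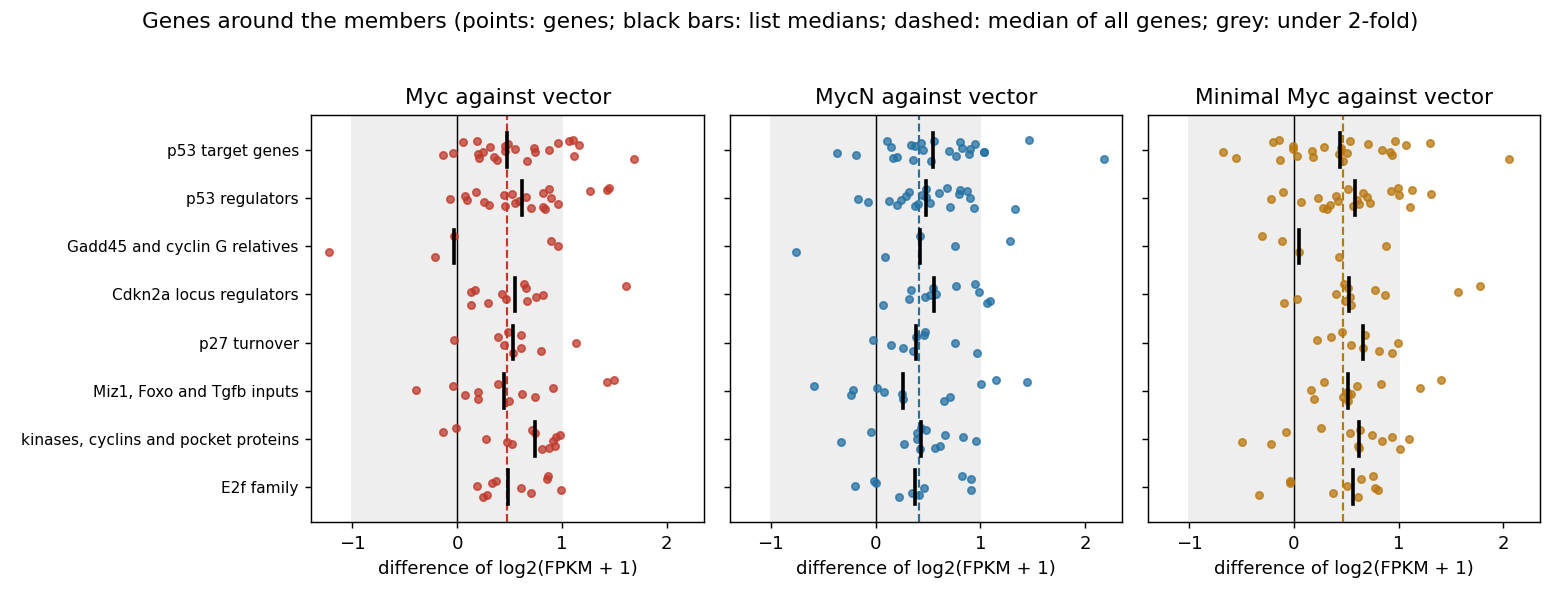
Difference of log2(FPKM + 1) from vector (horizontal axis) for the measured genes of 8 lists around the p53 and Cdk inhibitor genes, in Myc, MycN and Minimal Myc; each point is a gene, black bars are list medians, the dashed line is the median of all 11640 genes and the grey band marks differences under 2-fold. Most list medians lie near the dashed line, and Fas is the highest p53 target in each panel.

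Genes with the most similar profile were found by the distance between profiles of log2(FPKM + 1) over the 4 libraries, each centred on its mean, among 3293 genes that also spanned 2-fold. With 4 libraries many genes lie close, and the likeness is a description. Nearest to Cdkn1a were the histone genes Hist1h4n, at 6.57, 2.52, 4.27 and 1.54 FPKM in vector, Myc, MycN and Minimal Myc, and Hist1h4c, at distances of 0.16 and 0.18. Nearest to Gadd45a were Klra18 and Tpm2, an actin-binding tropomyosin (0.19 and 0.20). For Cdkn1b they were Rnf113a2 and Col6a1 (0.076 and 0.081), for Cdkn2a Nit2 and Gcnt2 (0.068 and 0.095), and for Ccng1 Efemp2 and Suox (0.076 and 0.091). For Cdkn2b they were Trex1, an exonuclease that clears cytosolic DNA, and Rap2c (0.083 and 0.10), with Trex1 at 6.61, 9.55, 7.52 and 24.1 FPKM. For Trp53 they were Gemin2 and Dbt (0.026 and 0.052).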

How the data were processed

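RNA-seq was made from 4 cultures, 1 library each. The submitters' processing notes name Cufflinks 2.2.0, TopHat2 2.0.11 and build mm9 without saying what each did. The authors deposited FPKM in 2 tables of 26608 rows, the second multiplied by 1 factor per library. The 32 rows of NanoString signal in each were left out of FPKM results. Identical rows of a symbol counted once, and differing rows were added up. The filter kept 11640 genes, those averaging 1 FPKM or more over the libraries, after removal of 310 small RNA genes. Differences are of log2(FPKM + 1) in the unscaled table (Python 3.11.15, pandas 2.3.3), counted at 2-fold. No test was possible, since each group has 1 library. The calculation was tested on simulated data without noise and with all levels raised, which checks the arithmetic but not weakly expressed genes. Older symbols were matched through RefSeq names. Promoter windows are those of RefSeq on GRCm38.p6, a later build than mm9, matched by symbol for all 10 members and used for letters only. The members and gene lists were chosen with earlier results of these data known. Named list genes are those past 2-fold against vector, or the 3 largest where more than 4 were, plus all members of the smallest lists. Exceptions to this rule are marked. Alternatives were a pseudocount of 0.1, no filter, the scaled table, centring on the median of all genes, and the highest row of a symbol in place of the sum.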

Additional observations from a re-analysis of the deposited data

Results flagged for a closer look

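The difference from vector in unscaled FPKM had opposite signs among the Myc libraries for 2 genes, and with 1 library per group these contrasts were not tested. For Ccng1 it was 0.57 in Myc and 0.79 in Minimal Myc but -0.25 in MycN, which was 0.08 in the scaled table. For Cdkn2c it was -0.10 in Myc and -0.33 in MycN but 0.20 in Minimal Myc. In the scaled table the Cdkn2c differences were 0.87, 0.02 and 0.54, so neither gene had opposite signs there. All 6 unscaled values lie under 2-fold, while scaled Ccng1 was past 2-fold in Myc, at 1.54, and in Minimal Myc, at 1.12.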

How the results depend on the processing

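No paired analysis was possible because each group has 1 library and no test was run, and no replicate could be left out. Dropping the filter or taking the highest row of a symbol changed none of the 60 member differences. In the scaled table the counts of members at least 2-fold higher than vector were 7 in Myc (78.5% of all genes) and 5 in Minimal Myc (33.7%), and 0 were lower in Myc (0.498%). Between Myc proteins, that table gave 2 members lower in MycN than in Myc (20.2%), and in Minimal Myc against Myc 2 lower (17.7%) and 0 higher (2.44%). Centred on the median of all genes, 0 members were 2-fold higher than vector in Myc (1.87% of all genes) and 1 in MycN (1.86%), 2 were lower in Minimal Myc (4.68%), and 1 was higher in Minimal Myc than in MycN (6.45%). With a pseudocount of 0.1, 2 members were lower in Minimal Myc than in MycN (5.88%). No member difference past 2-fold under one of these settings had the opposite sign under another. Of the 60 differences, the scaled table took 3 from past to under 2-fold and 13 the other way, and centring took 4 and 1. The depth of each library is unknown.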
